A study of Homo sapiens with 8 samples.

Results

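NF-kB signaling was described here through 10 genes: the 5 subunits (NFKB1, NFKB2, RELA, RELB and REL), 3 inhibitory IkB proteins (NFKBIA, NFKBIB and NFKBIE) and 2 feedback genes (TNFAIP3 and BIRC3). They were chosen by gene name from the 38551 genes of the count table, with no threshold on their values but with earlier results of these data known. Of these 10 genes, 8 had enough counts to be tested, among 13179 genes tested in all. The RNA came from MOLM-13, an established human line of KMT2A-rearranged acute myeloid leukemia (AML). For 4 libraries, cells had been exposed for 72 h to 100 nM PR-957 (ONX-0914), an inhibitor of PSMB8, the chymotrypsin-like subunit of the immunoproteasome. For the other 4, cells had received DMSO, its diluent, over the same 72 h. All libraries therefore came from 1 cell line at 1 dose and 1 time.

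NF-kB transcription factors are dimers of the 5 subunits, held in the cytoplasm by IkB proteins. When receptors activate the IKK kinases, IkB proteins are phosphorylated, ubiquitinated and degraded by the proteasome, and the released dimers enter the nucleus. The precursors encoded by NFKB1 (p105) and NFKB2 (p100) are processed to p50 and p52 in steps that also use the proteasome. Among the genes that the dimers switch on are NFKBIA and TNFAIP3, which dampen the signal again, and this circuit is often active in myeloid leukemia. The comparison of PR-957 with DMSO asked which transcripts of the circuit differed when a proteasome subunit was inhibited. Transcript counts do not measure IkB degradation, precursor processing or nuclear entry.

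Promoter sequence around the start sites is shown because several of these genes are known targets of the factor that they encode or restrain. The sequences are the last 100 bases before the start site of the RefSeq promoter table (GRCh38.p14), 5′ to 3′ on the strand of the gene. Capitals mark matches to the kappaB consensus, a motif of 10 bases searched on both strands over 250 bases before the start. The positions are chr4:102501259-102501358 (+ strand) for NFKB1, chr2:60881474-60881573 (+ strand) for REL, chr14:35404750-35404849 (- strand) for NFKBIA and chr6:137867159-137867258 (+ strand) for TNFAIP3. NFKB2, at chr10:102394010-102394109 (+ strand), is shown as the gene without a match.
NFKB1: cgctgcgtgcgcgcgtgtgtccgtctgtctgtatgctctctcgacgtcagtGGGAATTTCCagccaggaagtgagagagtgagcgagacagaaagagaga
REL: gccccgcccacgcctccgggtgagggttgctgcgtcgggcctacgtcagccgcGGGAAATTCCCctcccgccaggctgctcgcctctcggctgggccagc
NFKBIA: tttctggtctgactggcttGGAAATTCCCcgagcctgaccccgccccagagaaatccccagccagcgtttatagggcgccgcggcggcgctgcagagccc
TNFAIP3: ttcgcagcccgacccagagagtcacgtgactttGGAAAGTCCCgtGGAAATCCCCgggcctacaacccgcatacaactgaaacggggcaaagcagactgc
NFKB2: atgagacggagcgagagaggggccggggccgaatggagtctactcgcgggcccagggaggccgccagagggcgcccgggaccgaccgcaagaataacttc
The match in NFKB1 lay 49 to 40 bases before the start and that in NFKBIA 81 to 72 bases before it. REL held 2 matches on opposite strands that overlap and together span the capitals 47 to 37 bases before the start. TNFAIP3 held 2 separate matches, at 67 to 58 and 55 to 46 bases before the start. BIRC3 held 2 matches further out, at 199 to 190 and 135 to 126 bases before the start. Of the 8 genes found in the promoter table, 5 (62.5%) held a match, beside 1380 of 27303 RefSeq promoters (5.05%), and NFKB2, RELA and NFKBIB held none. RELB and NFKBIE were not matched in this table. Starts here are those of the promoter table and can differ from those of the counted gene models. The models of NFKB1 (chr4:102501266), REL (chr2:60881521) and TNFAIP3 (chr6:137866317) begin further upstream, so these matches lie within their spans. That of RELA begins further downstream, at chr11:65662972. A match describes these letters only, and nothing about binding was measured.

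Total counts ran from 16675036 to 23111223 per library and did not separate the groups (two-sided exact permutation p = 0.914). The markers were those of a myeloid line, with 9 of 10 myeloid markers at 1 CPM (reads per gene scaled to a common depth) or more in every library. Whether the line is MOLM-13 was not tested by these markers. Of the lymphoid markers 1 of 6 reached 1 CPM in every library, NKG7 (DMSO 22 ± 3.9, PR-957 26.4 ± 2.24 CPM, SD, n = 4), and CD3E was at 0. Of the erythroid and megakaryocyte markers 0 of 6 reached it, with PF4 at 0. The summed level of the myeloid markers was 1421 to 1503 CPM in DMSO and 2199.8 to 2469 CPM in PR-957, that of the lymphoid markers 18.2 to 28.4 and 24.5 to 29 CPM, and that of the erythroid and megakaryocyte markers 0.752 to 1.27 and 0.724 to 1.23 CPM. The rise of the myeloid sum in PR-957 was carried by LYZ (DMSO 153 ± 16.2, PR-957 820 ± 104 CPM) and MPO (DMSO 175 ± 16.2, PR-957 506 ± 34.9 CPM, SD, n = 4). FLT3 was lower (DMSO 340.4 ± 7.24, PR-957 173 ± 19.7 CPM, SD, n = 4), and CD33 and CEBPA were not called. Mitochondrial transcripts took 1.94 to 2.75% of counts in DMSO and 4.15 to 5.24% in PR-957, and ribosomal protein transcripts 17.8 to 19.1% and 13.8 to 15.6%. Both measures separated the groups (two-sided exact permutation p = 0.0286, the smallest that 4 against 4 allow), and their part in the results below was not tested. DMSO replicate 4, the deepest library, stood apart from the other DMSO libraries. Its chi-square per gene against DMSO replicates 1 to 3 was 10.4 to 15.6, whereas pairs among those 3 gave 3.33 to 5.87. Pairs of PR-957 libraries gave 4.47 to 9.2, and replicate 4 was in the highest of them (9.2 with replicate 1 and 8.27 with replicate 2). The fold changes of the 8 tested genes are given with and without DMSO replicate 4. In both groups, replicates 1 and 2 lay apart from replicates 3 and 4 on the second principal component (13.5% of the variance), and the labels name no batch.

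Among the 8 tested genes, TNFAIP3, NFKB2, RELB and RELA were lower and NFKBIE was higher in PR-957, whereas NFKB1, REL and NFKBIA were not called. The largest of these differences was that of TNFAIP3, which stood 2.38-fold lower in PR-957. In all, 1 gene was higher and 4 were lower at an adjusted p under 0.05 (quasi-likelihood test of edgeR, Benjamini-Hochberg over all genes tested). Over all 13179 genes, 23.1% were called higher, 23.5% lower and 46.6% in either direction, so that 5 calls among 8 genes stood near this background. The median log2 fold change was -0.16 over the 8 genes and 0.0030 over all genes tested. In 4 of the 8 genes the values of the groups did not overlap, beside 42.5% of all genes tested. Without DMSO replicate 4, 2 of the 8 genes were called higher and 3 lower, with a median of -0.20, beside 47.2% of all genes called in either direction. Since whole cultures were sequenced, fewer cells with a transcript and less transcript per cell cannot be told apart. The labels do not say that replicates were separate cultures, and the p-values then measure only the spread between these libraries.

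**Figure D1:**
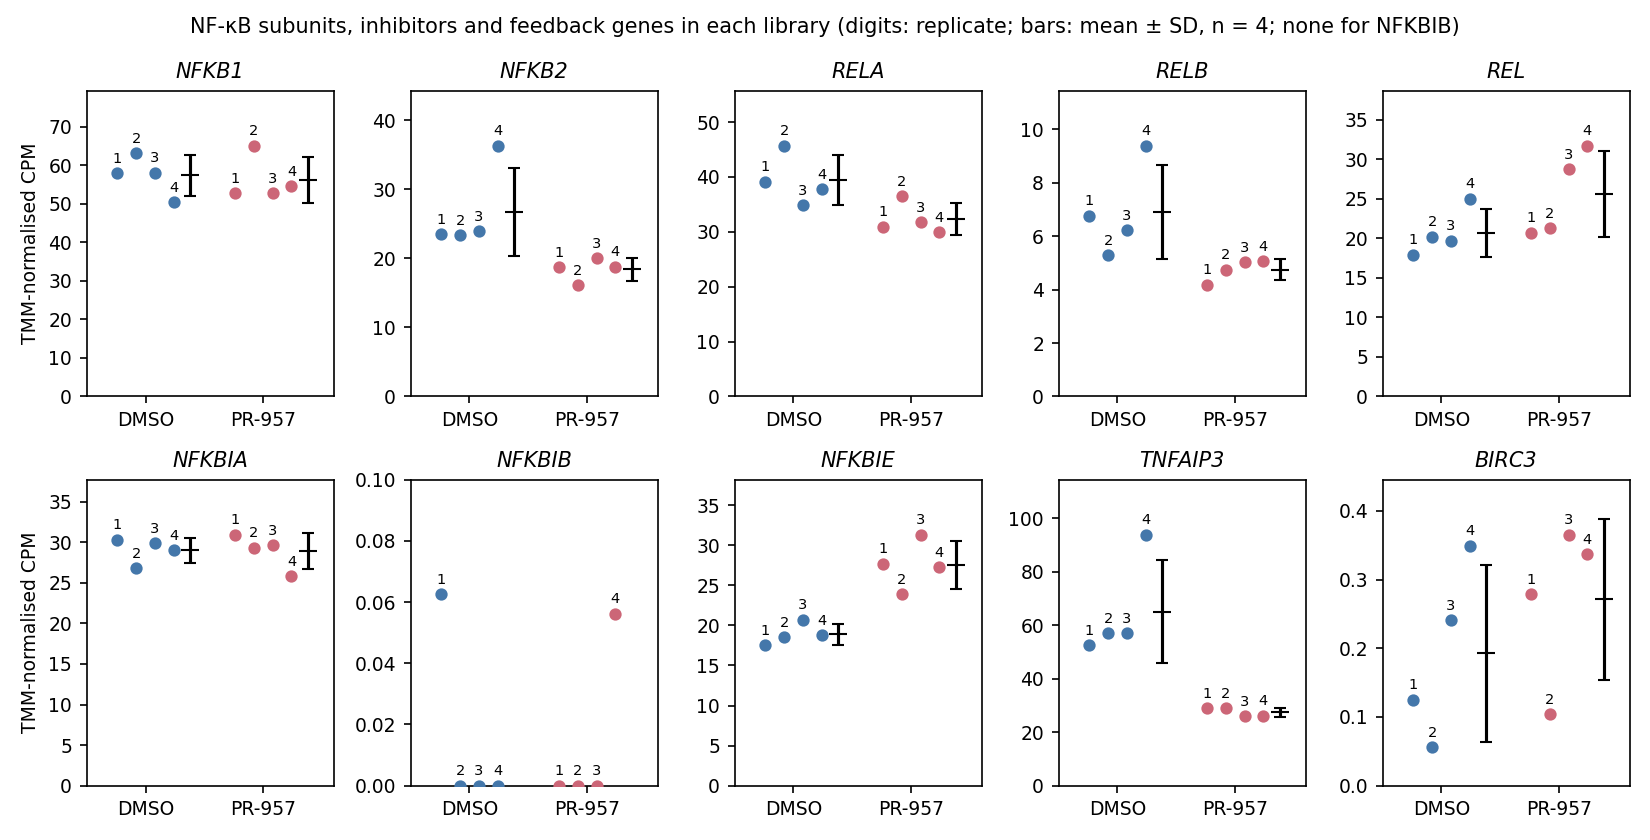
CPM (vertical axes, scaled by TMM) of the 10 NF-kB genes in each of 4 DMSO and 4 PR-957 libraries. Points carry the replicate number, and bars give the mean ± SD, left out for NFKBIB. TNFAIP3, NFKB2, RELB and NFKBIE show groups that do not overlap, and DMSO replicate 4 is the highest DMSO point of TNFAIP3, NFKB2, RELB, REL and BIRC3.

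The subunits divided into 3 called lower (NFKB2, RELB and RELA) and 2 not called (NFKB1 and REL). NFKB2 encodes p100, the precursor of p52 in the non-canonical pathway, in which it partners RELB. NFKB2 read 23.5, 23.3, 23.9 and 36.3 CPM in DMSO replicates 1 to 4, and 18.7, 16.1, 20 and 18.8 CPM in PR-957 replicates 1 to 4. Every PR-957 library lay below every DMSO library, and DMSO replicate 4 stood well above the 3 nearly equal DMSO libraries. The means were 26.8 ± 6.39 and 18.4 ± 1.63 CPM (SD, n = 4), a log2 fold change of -0.55 (SE 0.14, edgeR adjusted p = 0.00758). Leaving out DMSO replicate 4 gave -0.36 (SE 0.08, edgeR adjusted p = 0.00149), a smaller difference with a smaller error.

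RELB, the subunit that pairs with p52, had the lowest CPM of the 8 tested genes. RELB read 6.76, 5.29, 6.22 and 9.39 CPM in DMSO replicates 1 to 4, and 4.18, 4.75, 5.02 and 5.06 CPM in PR-957 replicates 1 to 4. The groups did not overlap, although DMSO replicate 2 was close to the highest PR-957 library. Its log2 fold change was -0.55 (SE 0.17, edgeR adjusted p = 0.0116), and without DMSO replicate 4 it was -0.36 (SE 0.15, edgeR adjusted p = 0.0603), so the call rested on that library. With replicates 1 and 2 alone the call was also lost, at a log2 fold change of -0.42 (edgeR adjusted p = 0.0876).

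RELA encodes p65, the transactivating partner of p50 in the canonical dimer. RELA read 39.1, 45.7, 34.9 and 37.8 CPM in DMSO replicates 1 to 4, and 30.9, 36.5, 31.8 and 29.9 CPM in PR-957 replicates 1 to 4. The groups overlapped, since PR-957 replicate 2 exceeded DMSO replicate 3. The log2 fold change was -0.29 (SE 0.08, edgeR adjusted p = 0.00859) and it was nearly the same without DMSO replicate 4, at -0.31 (edgeR adjusted p = 0.00699). The call did not hold when libraries were scaled by their totals alone (-0.21, edgeR adjusted p = 0.0544), nor with replicates 3 and 4 alone (-0.24, edgeR adjusted p = 0.0739).

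REL encodes c-Rel, the subunit known best from lymphocytes. REL read 17.9, 20.2, 19.7 and 25.0 CPM in DMSO replicates 1 to 4, and 20.7, 21.3, 28.7 and 31.7 CPM in PR-957 replicates 1 to 4. Replicates 3 and 4 of PR-957 were the highest of all libraries, whereas replicates 1 and 2 lay within the range of DMSO. The difference did not pass the test over all libraries (log2 fold change 0.30, SE 0.15, edgeR adjusted p = 0.127). Without DMSO replicate 4 it passed (0.41, SE 0.14, edgeR adjusted p = 0.0352). It also passed over all 8 libraries with the replicate number as a block (0.30, edgeR adjusted p = 0.00305) and with a term for replicates 1 and 2 against 3 and 4 (0.29, edgeR adjusted p = 0.00769). REL was higher in PR-957 in 4 of 4 same-numbered pairs, although replicate numbers were not taken to pair libraries. The log2 fold change was 0.14 (edgeR adjusted p = 0.319) within replicates 1 and 2 and 0.42 (edgeR adjusted p = 0.0172) within replicates 3 and 4.

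NFKB1 encodes p105, the precursor of p50. NFKB1 read 57.9, 63.2, 58.1 and 50.4 CPM in DMSO replicates 1 to 4, and 52.8, 65.1, 52.7 and 54.5 CPM in PR-957 replicates 1 to 4. The highest and the second highest of the 8 values were replicate 2 of PR-957 and of DMSO, and the groups overlapped over most of their ranges. The log2 fold change was -0.03 (SE 0.08, edgeR adjusted p = 0.805) and -0.09 (SE 0.07, edgeR adjusted p = 0.329) without DMSO replicate 4. NFKB1 and NFKB2, the 2 precursor genes, thus differed in their calls, but the difference between them was not tested.

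Among the IkB inhibitors, NFKBIE rose and NFKBIA was not called. NFKBIE encodes IkB epsilon, an inhibitor that acts mostly on dimers with RELA and REL. NFKBIE read 17.5, 18.5, 20.7 and 18.8 CPM in DMSO replicates 1 to 4, and 27.7, 23.9, 31.3 and 27.3 CPM in PR-957 replicates 1 to 4. Every PR-957 library exceeded every DMSO library, and DMSO replicate 4 lay within the other DMSO values. The means were 18.9 ± 1.35 and 27.5 ± 3.01 CPM (SD, n = 4), or 1.46-fold higher in PR-957 (log2 fold change 0.55, SE 0.09, edgeR adjusted p = 4.9e-05). Without DMSO replicate 4 the log2 fold change was 0.54 (edgeR adjusted p = 6.17e-05). Over the 19 alternative analyses it ran from 0.48 to 0.62 and passed the threshold in each.

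NFKBIA encodes IkB alpha, the inhibitor with the fastest turnover and the classic feedback target of RELA. NFKBIA read 30.3, 26.8, 29.9 and 29.0 CPM in DMSO replicates 1 to 4, and 30.9, 29.3, 29.6 and 25.8 CPM in PR-957 replicates 1 to 4. The groups overlapped almost fully, and no library stood apart. The log2 fold change was -0.0045 (SE 0.07, edgeR adjusted p = 0.967) and -0.01 without DMSO replicate 4 (edgeR adjusted p = 0.956), and over the alternatives it ran from -0.09 to 0.08, so it has no stable direction.

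NFKBIB encodes IkB beta. Its counts were 1 in DMSO replicate 1, 1 in PR-957 replicate 4 and 0 in the remaining libraries. The gene model placed NFKBIB on chromosome 19 and on 1 further contig, and the counting command did not ask for fragments that map to several places. The level of this transcript therefore cannot be read from these counts. Of the 2094 genes with a second placement, 1299 (62%) had 0 counts in every library, beside 36.8% of the other genes.

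TNFAIP3 encodes A20, the ubiquitin-editing enzyme that ends signaling from tumor necrosis factor and Toll-like receptors. TNFAIP3 read 52.5, 57.0, 56.9 and 93.7 CPM in DMSO replicates 1 to 4, and 29.0, 28.9, 25.9 and 26.2 CPM in PR-957 replicates 1 to 4. The PR-957 libraries were close to each other and far below every DMSO library, while DMSO replicate 4 stood 1.69-fold above the mean of the other 3. The means were 65.0 ± 19.3 and 27.5 ± 1.68 CPM (SD, n = 4), a log2 fold change of -1.25 (SE 0.20, edgeR adjusted p = 0.00221). Leaving out DMSO replicate 4 gave -1.02 (SE 0.07, edgeR adjusted p = 1.15e-10). Within replicates 1 and 2 it was -0.92 (SE 0.09, edgeR adjusted p = 1.82e-12). Within replicates 3 and 4 it was larger but did not pass, at -1.55 (SE 0.34, edgeR adjusted p = 0.0677).

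BIRC3 encodes cIAP2, a ubiquitin ligase of receptor complexes and an NF-kB target. BIRC3 counts were 2, 1, 4 and 8 in DMSO replicates 1 to 4, and 5, 2, 8 and 6 in PR-957 replicates 1 to 4. The groups overlapped, and the gene was too low to be tested. Its summed counts were 15 in DMSO and 21 in PR-957, a ratio of 1.34 after scaling (95% exact interval 0.657 to 2.79, covering counting error only), so no difference was detectable at this depth.

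**Figure D2:**
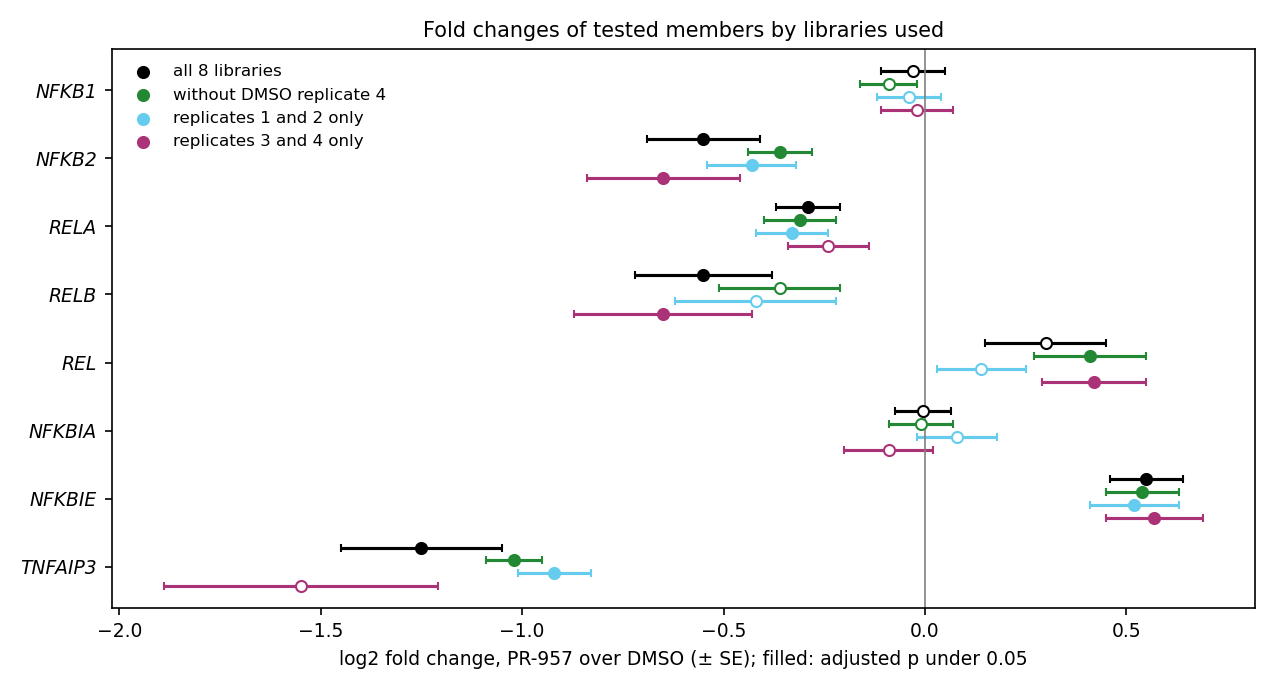
Log2 fold change of PR-957 over DMSO (horizontal axis, ± SE) of the 8 tested NF-kB genes in 4 selections of libraries, with filled points for an edgeR adjusted p under 0.05. NFKBIE and NFKB2 are called in each selection, RELB and REL change their call without DMSO replicate 4, and TNFAIP3 stays between -1.55 and -0.92.

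DMSO replicate 4 was at least 1.5-fold above the mean of DMSO replicates 1 to 3 in 3 of the 8 tested genes (NFKB2, RELB and TNFAIP3), beside 6.83% of all genes tested. This measure was chosen after the values were seen. Its ratio was 1.54 for NFKB2, 1.54 for RELB and 1.69 for TNFAIP3, whereas it was 1.3 for REL, 1 for NFKBIA, 0.993 for NFKBIE, 0.947 for RELA and 0.843 for NFKB1. The 3 genes with the high ratio were thus among the 4 called lower in PR-957. A high DMSO library raises the DMSO mean, so leaving it out must shrink a negative log2 fold change. In each of these 3 genes the log2 fold change kept its direction without that library. This was fixed in advance, since every other DMSO library also lay above every PR-957 library.

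**Figure D3:**
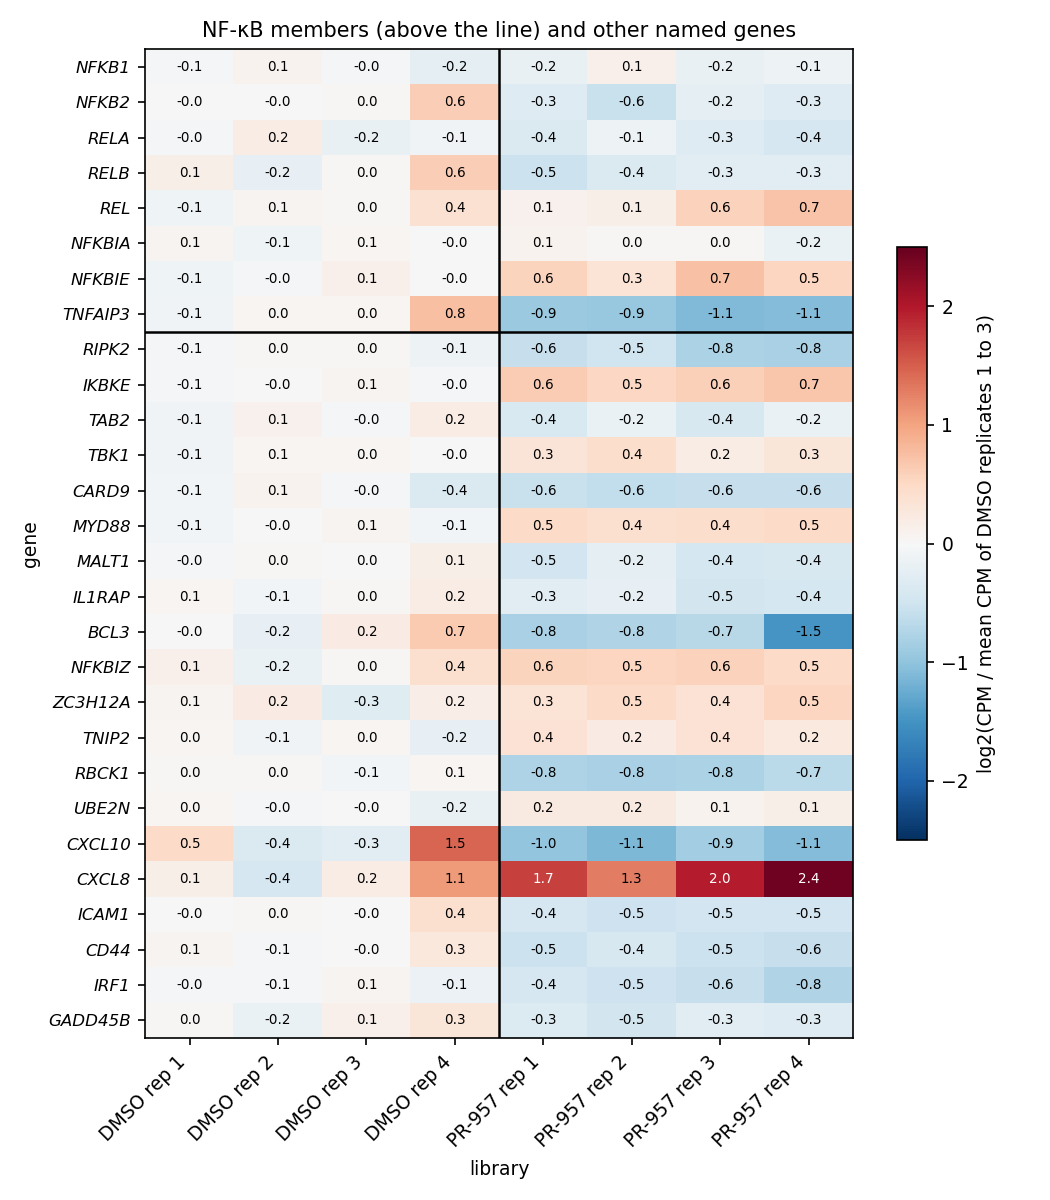
Log2 ratio of each library's CPM to the mean CPM of DMSO replicates 1 to 3 (color and printed value) for the 8 tested NF-kB genes above the line and 20 named pathway genes below it, with libraries along the horizontal axis. DMSO replicate 4 is raised for NFKB2, RELB, TNFAIP3, BCL3, CXCL10 and CXCL8, and PR-957 libraries are low for TNFAIP3, BCL3, RBCK1 and CXCL10.

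Levels of different genes were compared per kilobase of gene model, and their order rests on that division. The gene models ran from 1567 bases for NFKBIA to 11393 for REL. By CPM alone in DMSO, TNFAIP3 (65) and NFKB1 (57.4) stood above RELA (39.4) and NFKBIA (29), and REL (20.7) stood above NFKBIE (18.9). Values per kb follow. In DMSO, NFKBIA was the most abundant at 18.5 ± 0.983 CPM per kb, followed by RELA at 15.3 ± 1.77 and NFKB1 at 12.9 ± 1.19 CPM per kb (SD, n = 4). NFKBIE (8.05 ± 0.574), TNFAIP3 (7.55 ± 2.24) and NFKB2 (5.77 ± 1.38 CPM per kb) formed the middle, and RELB (3.04 ± 0.773) and REL (1.82 ± 0.267 CPM per kb) were lowest of the tested genes. The ranges of neighbors overlapped from NFKBIA down to NFKB1 and from NFKBIE down to NFKB2. Within single libraries, RELA exceeded NFKB1 and TNFAIP3 exceeded NFKB2 in 4 of 4, and NFKBIA exceeded RELA and NFKBIE exceeded TNFAIP3 in 3 of 4. Without DMSO replicate 4, an alternative chosen after the values were seen, the order was the same, and TNFAIP3 (6.44 ± 0.299 CPM per kb, SD, n = 3) no longer overlapped NFKBIE (8.07 ± 0.703) or NFKB2 (5.08 ± 0.064). In PR-957, NFKBIA led again at 18.4 ± 1.4 CPM per kb, above NFKB1 (12.6 ± 1.34), RELA (12.5 ± 1.13) and NFKBIE (11.7 ± 1.29 CPM per kb), which overlapped each other. TNFAIP3 stood at 3.19 ± 0.195 CPM per kb in PR-957, below NFKB2 at 3.97 ± 0.351. REL (2.25 ± 0.478) and RELB (2.09 ± 0.179 CPM per kb) overlapped there. BIRC3 and NFKBIB came last in both groups, with NFKBIB limited as described.

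Ratios between members of one library do not depend on the scaling of libraries, and they were chosen after the values were seen. The ratio of TNFAIP3 to NFKBIA, per kb, was 0.316, 0.386, 0.345 and 0.588 in DMSO replicates 1 to 4 and 0.171, 0.179, 0.159 and 0.185 in PR-957 replicates 1 to 4. This ratio did not overlap between the groups, and NFKBIA itself was not called. For NFKBIE over NFKBIA the ratio was 0.386 to 0.462 in DMSO and 0.545 to 0.708 in PR-957, again without overlap. The ratio of NFKB2 to NFKB1 (0.355 to 0.694 against 0.238 to 0.365), of RELB to RELA (0.131 to 0.282 against 0.148 to 0.192) and of REL to RELA (0.1 to 0.15 against 0.132 to 0.24) overlapped between DMSO and PR-957.

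The pathway around these genes was read from 5 further lists, described by counts and medians beside those of all genes tested. The list of IKK and upstream kinases also holds the adaptors TAB1, TAB2 and TAB3. Of its 15 genes, all tested, 6 were higher and 2 lower, with a median log2 fold change of 0.09. That made 8 of 15 called beside 46.6% of all genes tested. The classical IKK subunits IKBKB (-0.05, SE 0.05, edgeR adjusted p = 0.426) and IKBKG (0.07, SE 0.10, edgeR adjusted p = 0.613) were not called. CHUK, the catalytic subunit of the non-canonical pathway too, was higher at 0.24 (edgeR adjusted p = 0.00915). IKBKE and TBK1, the IKK-related kinases of interferon signaling, were higher at 0.62 (edgeR adjusted p = 1.93e-06) and 0.32 (edgeR adjusted p = 0.000633). IKBKE read 17.5 to 19 CPM in DMSO and 26 to 29.4 CPM in PR-957. RIPK2, the kinase of NOD receptors, was lower at -0.63 (edgeR adjusted p = 1.91e-06), with 41.7 to 46.2 CPM in DMSO and 25.8 to 32.2 CPM in PR-957. TAB2, an adaptor of the kinase TAK1, was lower at -0.32 (edgeR adjusted p = 0.00142). A lack of overlap was a condition for naming IKBKE, TBK1, RIPK2 and TAB2, found in 7 of the 15 genes and 42.5% of all genes tested.

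Of 22 receptors and adaptors, 20 were tested, of which 4 were higher and 7 lower, with a median of -0.01, which made 11 of 20 called beside the same 46.6%. Without DMSO replicate 4, 5 were higher and 4 lower, as CD40, TLR1 and TRAF6 were no longer called and TLR4 was added. Without PR-957 replicate 2 the number lower was 4, and without PR-957 replicate 4 it was 3. CD40, for instance, moved from -0.86 (edgeR adjusted p = 0.0332) to -0.51 (edgeR adjusted p = 0.14) when DMSO replicate 4 was left out. MYD88, the adaptor of Toll-like and interleukin-1 receptors, was higher at 0.46 (edgeR adjusted p = 7.23e-06), with 30.6 to 33.7 CPM in DMSO and 42.4 to 44.8 CPM in PR-957. CARD9 (-0.49, edgeR adjusted p = 4.15e-05) and MALT1 (-0.42, edgeR adjusted p = 0.000414), parts of the CARD signaling complexes, were lower. So was IL1RAP, a chain of the interleukin-1 receptor (-0.38, edgeR adjusted p = 0.000447). MYD88 and these genes were named on condition that their groups did not overlap, found in 7 of the 20 tested genes and 42.5% of all genes tested.

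The list of other IkB proteins, deubiquitinases and feedback genes held 13 genes, all tested, with 5 higher, 3 lower and a median of 0.02, or 8 of 13 called beside 46.6% of all genes. The number lower was 2 without DMSO replicate 4, as TNIP1, which binds A20, was no longer called (edgeR adjusted p = 0.0159 with that library and 0.0536 without it). The number higher was 2 without DMSO replicate 3 or PR-957 replicate 4 and 3 without PR-957 replicate 2. BCL3, an atypical IkB protein that binds p50 and p52 in the nucleus, read 6.01, 5.23, 6.94 and 9.61 CPM in DMSO replicates 1 to 4 and 3.45, 3.60, 3.74 and 2.19 CPM in PR-957 replicates 1 to 4. The groups did not overlap, which was a condition for naming BCL3, found in 8 of the 13 genes and 42.5% of all genes tested. The log2 fold change of BCL3 was -1.10 (SE 0.20, edgeR adjusted p = 0.00022), and without DMSO replicate 4 it was -0.89 (edgeR adjusted p = 0.000475). NFKBIZ, another nuclear IkB protein, was higher at 0.41 (SE 0.16, edgeR adjusted p = 0.0406), but the call was lost in 10 of 19 alternatives. TNIP2, a binding partner of A20, was higher at 0.35 (edgeR adjusted p = 0.00042). ZC3H12A, an RNase that degrades cytokine transcripts, was higher at 0.38 (edgeR adjusted p = 0.0257) and lost its call in 5 of 19 alternatives. TRAF1, a target and adaptor named here after its values were seen, read 1.56 to 2.44 CPM in DMSO replicates 1 to 3, 7.47 CPM in DMSO replicate 4 and 0.836 to 1.6 CPM in PR-957. It did not pass the test (-1.33, SE 0.54, edgeR adjusted p = 0.0781), and without DMSO replicate 4 it was -0.53 (SE 0.28, edgeR adjusted p = 0.126).

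The machinery that ubiquitinates IkB proteins or builds linear ubiquitin chains held 14 genes, of which 13 were tested, with 1 higher, 1 lower and a median of 0.01, or 2 of 13 called beside 46.6% of all genes. The number lower was 3 without DMSO replicate 4 and 2 without PR-957 replicate 2. RBCK1 encodes HOIL-1, a part of the linear ubiquitin ligase. RBCK1 read 121 to 130.4 CPM in DMSO and 72.1 to 79.1 CPM in PR-957, a log2 fold change of -0.77 (SE 0.05, edgeR adjusted p = 1.3e-09). SHARPIN, its partner, was not called (-0.12, SE 0.06, edgeR adjusted p = 0.0926), and RNF31, the catalytic subunit, had 0 counts in every library and a second placement, so that its level cannot be read from these counts. UBE2N, which builds K63-linked chains, was higher at 0.21 (edgeR adjusted p = 0.0056). RBCK1 and UBE2N were named on condition that their groups did not overlap, found in 4 of the 13 tested genes and 42.5% of all genes tested. The E3 adaptors BTRC (0.01, SE 0.09, edgeR adjusted p = 0.953) and FBXW11 (-0.20, SE 0.09, edgeR adjusted p = 0.0661) that recognize phosphorylated IkB were not called.

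Of 32 NF-kB target genes, 21 were tested, of which 4 were higher and 5 lower, with a median of 0.06, or 9 of 21 called beside 46.6% of all genes. Without DMSO replicate 2 or PR-957 replicate 3, 2 were higher. TNF, IER3, CCL3 and CCL4 had 0 counts in all libraries, each with a second placement, and their levels cannot be read from these counts either. The chemokine genes CXCL8 and CXCL10 moved in opposite directions. CXCL8 read 1.82, 1.23, 1.87 and 3.41 CPM in DMSO replicates 1 to 4 and 5.35, 3.97, 6.39 and 8.83 CPM in PR-957 replicates 1 to 4 (log2 fold change 1.53, SE 0.30, edgeR adjusted p = 0.00119). CXCL10 read 3.82, 2.12, 2.29 and 7.56 CPM in DMSO replicates 1 to 4 and 1.39, 1.25, 1.51 and 1.29 CPM in PR-957 replicates 1 to 4 (log2 fold change -1.55, SE 0.39, edgeR adjusted p = 0.00605). Neither gene overlapped between the groups, which was a condition for naming them, and both were highest of the DMSO libraries in replicate 4. Without that library CXCL8 stood at 1.90 (edgeR adjusted p = 1.31e-05) and CXCL10 at -1 (edgeR adjusted p = 0.003). ICAM1 (-0.59, edgeR adjusted p = 5.43e-05) and CD44 (-0.58, edgeR adjusted p = 9.12e-07), both adhesion molecules, were lower. IRF1, an interferon regulatory factor (-0.53, edgeR adjusted p = 1.13e-05), and GADD45B, a stress response gene (-0.43, edgeR adjusted p = 0.000312), were lower too. These genes were also named for their lack of overlap, found in 6 of the 21 tested targets and 42.5% of all genes tested. TNFAIP2 (0.22, edgeR adjusted p = 0.0126), TNFAIP8 (0.17, edgeR adjusted p = 0.0358) and BCL2L1 (0.43, edgeR adjusted p = 0.0466) were higher, with groups that overlapped. BCL2L1 lost its call without DMSO replicate 4 (edgeR adjusted p = 0.108). Of the target promoters found in the RefSeq table, 10 of 27 (37.0%) held the kappaB consensus.

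**Figure D4:**
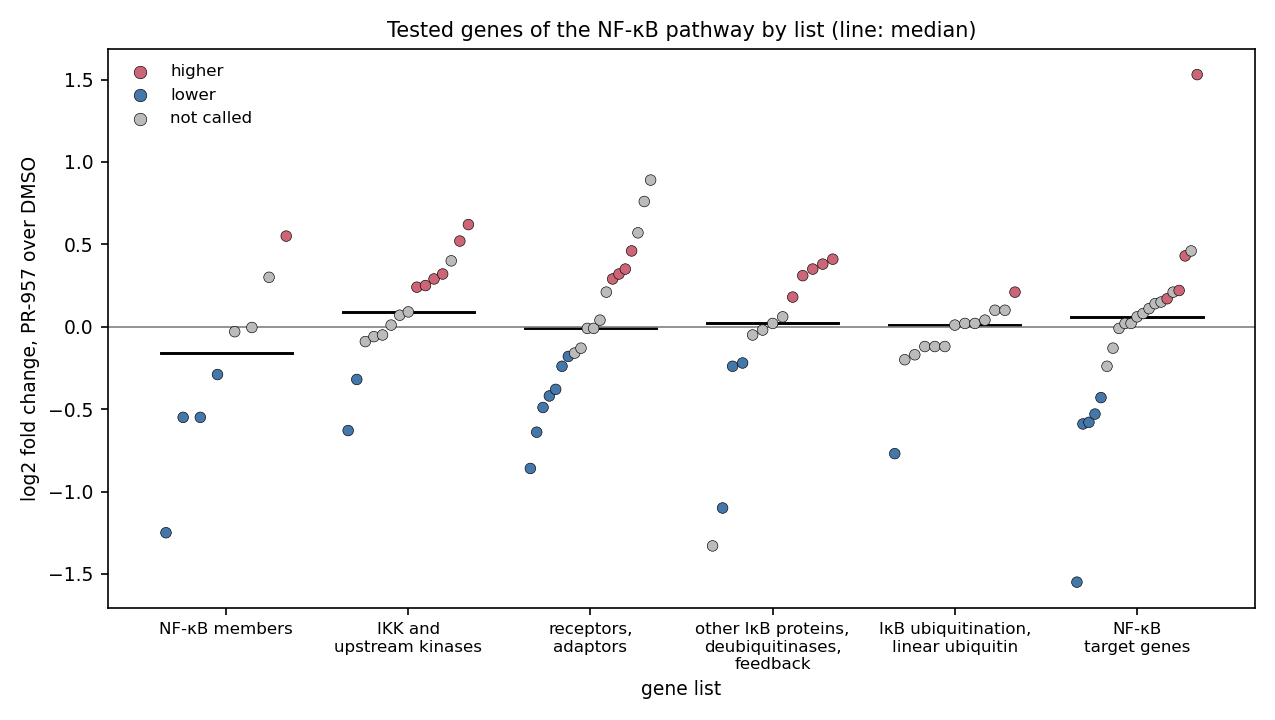
Log2 fold change of PR-957 over DMSO (vertical axis) of each tested gene by list (horizontal axis), colored by its call at an edgeR adjusted p under 0.05, with a line at the median. Each list holds genes called in both directions, and the medians lie between -0.16 for the 8 NF-kB genes and 0.09 for the IKK and upstream kinases.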

How the data were processed

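Libraries of polyA RNA were made with a TruSeq RNA kit, and the sources used here do not state whether it marks strand. Per the labels, the authors trimmed reads with Trimmomatic 0.39, aligned them to hg38 with STAR 2.7.10a and used featureCounts 2.0.1. Per the file headers, the deposited values are raw fragment counts per RefSeq gene, counted on the reverse strand with both ends mapped. The counting command names 16 libraries, and the 8 that the table lacks were not analysed here. The table has 6 rows without values, which were dropped. A deposited table of the authors' own fold changes and p-values was not used.

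Counts were tested with edgeR 4.0.16 in R 4.3.3 (filterByExpr, TMM scaling, robust quasi-likelihood fit, two-sided, no covariate, all 8 libraries) and adjusted by Benjamini-Hochberg over 13179 genes. SE is the absolute log2 fold change over the square root of F. CPM use TMM effective library sizes.

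The members and the gene lists were chosen with earlier results of these data known. Named genes are the 10 members and, from each pathway list, up to 4 genes (8 for targets) with the largest absolute log2 fold change among genes that passed 0.05, had no overlap between groups and averaged at least 1 on the log2 CPM scale. CHUK, IKBKB, IKBKG, CD40, TLR1, TLR4, TRAF6, TRAF1, TNIP1, SHARPIN, BTRC, FBXW11, TNFAIP2, TNFAIP8, BCL2L1 and genes at 0 were named in addition, after values were seen. The kappaB search was also added then. Alternatives were DESeq2 1.42.0, limma-voom (limma 3.58.1), other scalings and filters, the replicate number as a block, replicates 1 and 2 against 3 and 4 as a term, each pair of replicates alone, and leaving out each library.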

Additional observations from a re-analysis of the deposited data

Results flagged for a closer look

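Within groups of 4 libraries, 5 of 56 gene groups (28 named genes in 2 groups each) had 1 library far from the other 3 by Dixon's criterion, which chance alone passes in about 1 of 20 groups. NFKB2 in DMSO replicate 4 was highest at 36.3 CPM. TNFAIP3 in the same library was highest at 93.7 CPM, and so was ICAM1 at 29.1 CPM. NFKB1 in PR-957 replicate 2 was highest at 65.1 CPM. RBCK1 in DMSO replicate 3 was lowest at 121 CPM. Over all genes tested, 6.32% of DMSO groups and 4.65% of PR-957 groups passed the same criterion, and in 2.15% of genes DMSO replicate 4 was the high library.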

How the results depend on the processing

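Of the 28 named genes tested, 17 kept their direction and their side of the threshold in all 19 alternatives. The pathway genes among them had been named for passing the threshold without overlap in these same libraries. Their share in this count was therefore favored by that choice. Of the tested members, only NFKB2 and NFKBIE were unchanged in all 19. The count of NF-kB members called higher, 1 in the report, was 2 with no filter on low counts, with the replicate block, with the term for replicates 1 and 2 against 3 and 4 and with replicates 3 and 4 only. It was 1 to 2 over the fits that left out a library. REL was the added gene in each of these. The count called lower, 4 in the report, was 2 with replicates 3 and 4 only, where TNFAIP3 and RELA were lost, and 3 to 4 over left-out libraries. NFKB1 changed direction with library totals alone (0.05) and over left-out libraries (-0.10 to 0.02). NFKBIA did so with upper quartile scaling (0.01), library totals alone (0.07), replicates 1 and 2 only (0.08) and over left-out libraries (-0.04 to 0.04). The causes of these changes were not tested.

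Replicate numbers were not taken to pair libraries. Deviations from the group means correlated at 0.151, 0.213, 0.0985 and 0.198 for same-numbered libraries 1 to 4, and PR-957 replicate 3 correlated best with DMSO replicate 4 (0.105). All correlations within replicates 1 and 2 and within replicates 3 and 4 were positive, and all across these sets were negative. Apart from REL, the replicate block changed no call of a tested member.

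In the list of IKK and upstream kinases, genes called higher were 3 with replicates 3 and 4 only (6 in the report). Receptors and adaptors called lower were 4 with library totals alone, 3 with replicates 1 and 2 only and 3 to 6 over left-out libraries (7 in the report). Other IkB proteins, deubiquitinases and feedback genes called higher were 3 with no filter and with replicates 1 and 2 only, 1 with replicates 3 and 4 only and 2 to 5 over left-out libraries (5 in the report). Those called lower were 1 with replicates 3 and 4 only (3 in the report). In the ubiquitin machinery, those called higher were 3 with library totals alone, 2 with replicates 1 and 2 only and 0 with replicates 3 and 4 only, where edgeR gave 1 at an unadjusted p under 0.05 and no other tool was run (1 in the report). Those called lower were 3 with the replicate block and with the term, 2 with DESeq2, limma-voom, no filter and either pair of replicates alone, and 1 to 3 over left-out libraries (1 in the report). Target genes called higher were 2 to 5 over left-out libraries (4 in the report).

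With 4 libraries a group, small differences such as those of NFKB1 and NFKBIA are bounded only by their SE. Genes with a second placement (NFKBIB, RNF31, TNF, IER3, CCL3 and CCL4) and the low BIRC3 counts give no call. A group of 2 libraries, as in the fits on pairs of replicates, leaves few degrees of freedom.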
